A study of Mus musculus with 6 samples.

Results

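Rab GTPases and the TBC domain proteins of the Tbc1d family were examined in hematopoietic stem and progenitor cells (HSPCs) of mice that lack the miRNA cluster Mirc11. Members were the entries of the gene table whose symbol is Rab, a number and at most a short suffix, or starts with Tbc1d. This rule found 100 of the 23999 entries of the table, and used no measured value. They comprised 58 Rab GTPase genes, 9 genes with a Rab name that encode effectors or regulators of Rabs (Rab3gap1, Rab3gap2, Rab3il1, Rab3ip and Rab11fip1 to Rab11fip5), 30 Tbc1d genes and 3 opposite-strand transcripts (Rab10os, Rab26os and Tbc1d22bos). Of these, 97 had a mean normalized read count of at least 1 over the 6 libraries and were tested, among them 56 Rab GTPase genes, all 9 effectors or regulators, 29 Tbc1d genes and all 3 opposite-strand transcripts. The other 3 members had almost no reads. Rab3c was at 0 in all 6 libraries, Rab9b had reads only in wildtype library 3, and Tbc1d21 had 1 read, in Mirc11-/- library 3.

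RNA was sequenced from sorted Lin-Sca1+cKit+ (LSK) bone marrow cells, the gate that holds mouse stem cells and multipotent progenitors. The tested genotype was Mirc11-/-, with a deletion of the cluster of the miRNA genes Mir23a, Mir27a and Mir24-2, and the controls were wildtype, with 3 libraries for each genotype. All mice were C57BL/6 and 6 to 8 weeks old, none received an agent, and all libraries carry the label of normal hematopoiesis and 1 shared batch label. Each library was made from RNA of cells pooled from several mice, and the Mirc11-/- mice carried the deletion as whole animals, not only in the sorted cells. A normalized read count is a gene's number of reads scaled by 1 factor per library. With 3 libraries a genotype, the p-values measure the spread between these pools.

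Each library held 15029379 to 17051541 reads in genes among the Mirc11-/- libraries and 15772826 to 16250826 among the wildtype libraries. The deletion was seen in every library, since Mir23a, Mir27a and Mir24-2 had 0 reads in all 3 Mirc11-/- libraries, against 51, 54 and 73 reads summed over the wildtype libraries. Markers of the gate were present, with Kit at 6644 to 9950 normalized counts and Ly6a, which encodes Sca1, at 374 to 683. Of the lineage markers, the T cell genes Cd3e and Cd3d were at or near 0 (at most 2.01 and 6.62). Myeloid genes were present in every library, with S100a8 at 3757 to 6779 and Ngp at 776 to 3736, both with overlap of the genotypes. In the neutrophil and monocyte list, only Itgam was free of overlap. It had 1263, 1318 and 1398 normalized counts in Mirc11-/- libraries, against 1574, 1540 and 1653 in wildtype libraries. Ms4a1 of the B cell list and Fcer1a of the mast cell and basophil list were higher in Mirc11-/- libraries without overlap, both at low counts. The Mirc11-/- libraries stood apart from each other in several marker lists. The 14 erythroid markers summed to 55799, 52828 and 25972 normalized counts in Mirc11-/- libraries 1, 2 and 3, against 33378, 25498 and 24756 in the wildtype libraries, with no marker free of overlap between the genotypes. The 11 stem and progenitor markers summed to 26877, 33926 and 47163 normalized counts in the Mirc11-/- libraries, against 39964, 40600 and 47221 in the wildtype libraries, again with no marker free of overlap. Mirc11-/- library 3 thus lay closer to the wildtype libraries than library 1 did in both lists. In such pools, fewer cells of a type and less RNA per cell cannot be told apart.

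Rab GTPases are small switches of membrane traffic. Loaded with GTP by guanine nucleotide exchange factors (GEFs), a Rab sits on 1 kind of membrane and recruits effectors that move, tether or fuse vesicles. GTPase activating proteins (GAPs), most of which carry a TBC domain, end the signal by speeding GTP hydrolysis, and GDI and escort proteins carry the prenylated Rab between membranes. In blood cells this machinery serves receptor uptake and recycling, granule and lysosome formation, and secretion.

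The mature miRNAs of the deleted cluster are shown first, since matches to them are counted in the members' transcripts, with the seed (bases 2 to 8) in capitals. They are credited to RefSeq (GRCm38.p6) and lie on the plus strand of chromosome 8, at chr8:84208563-84208583, chr8:84208727-84208747 and chr8:84208875-84208896. The seeds of miR-23a and miR-27a differ, and that of miR-24 is unlike both. The mature miR-24-3p is also made from Mir24-1, a gene outside the cluster. The paper places miR-24-1 in the paralog cluster Mirc22, beside miR-23b and miR-27b. Their sequences were not compared with these seeds.
mmu-miR-23a-3p: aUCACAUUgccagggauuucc
mmu-miR-27a-3p: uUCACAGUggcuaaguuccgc
mmu-miR-24-3p: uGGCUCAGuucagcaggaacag

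Tbc1d9 was the member that fell in Mirc11-/- cells. Its fall was already known from an earlier report on these data when it was set against the other members. The fall is thus a starting value and not a new finding. Tbc1d9 encodes a TBC domain protein with GRAM domains, and its closest relatives are Tbc1d9b, Tbc1d8 and Tbc1d8b. Tbc1d9 had 21.8, 11.4 and 15.1 normalized counts in the Mirc11-/- libraries, against 158, 183 and 231 in the wildtype libraries. The genotypes were far apart, with the highest Mirc11-/- library well under the lowest wildtype library. The mean was 16.1 ± 5.24 in Mirc11-/- cells and 190 ± 37.3 in wildtype cells (SD, n = 3 each), so that Mirc11-/- cells held 8.45% of the wildtype level. The log2 fold change was -3.51 (SE 0.29, limma on log2(normalized count + 1), Benjamini-Hochberg adjusted p = 0.00605). It rested on 49 reads in the Mirc11-/- libraries and 572 in the wildtype libraries. The adjusted p missed the threshold of 0.05 when any 1 wildtype library was left out, at 0.0519 without library 1, 0.109 without library 2 and 0.142 without library 3, and also at 0.0653 in limma without a mean-variance trend. The log2 fold change stayed between -3.74 and -3.31 in each of the 6 fits that left out a library. The paper's supplement also lists Tbc1d9 as lower in the mutant LSK cells, but with a much smaller fall and a larger p-value. The size of the fall given here thus differs from the published one. Why they differ was not tested.

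The gene lies at chr8:83165352-83272940 (GRCm38.p6), 0.936 Mb from Mirc11 by their nearest ends. Its longest annotated 3′ UTR has 1324 bases and holds 2 matches to the seed of miR-23a-3p, which are shown because Tbc1d9 is the called member. Capitals mark the letters AATGTGA, searched on the transcript strand. Positions count from 1 at the first base after the stop codon, 682 to 688 for the first match and 1295 to 1301 for the second.
Tbc1d9 site at 682: ctgagaacccgAATGTGAgtgcaaagagg
Tbc1d9 site at 1295: cggctaggataAATGTGAacaaataaaat

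The paralogs differed in level and did not share the change of Tbc1d9. Tbc1d9b, which acts on Rab11a, had 3047, 3047 and 3358 normalized counts in Mirc11-/- libraries and 3545, 3439 and 3660 in wildtype libraries. The libraries did not overlap, but the difference was small, at a log2 fold change of -0.17 (SE 0.08, limma adjusted p = 0.597, unadjusted p = 0.0488). Tbc1d8 had 1071, 1114 and 989 normalized counts in Mirc11-/- libraries, against 939, 972 and 1098 in wildtype libraries. The log2 fold change of Tbc1d8 was 0.08 (SE 0.10), and its annotation shares 417 bases with Rpl31, a ribosomal protein gene. Tbc1d8b had 497, 491 and 463 normalized counts in Mirc11-/- libraries and 455, 477 and 536 in wildtype libraries, a log2 fold change of -0.01 (SE 0.11). For both of these genes the genotypes overlapped. Each of the 3 paralogs held 1 seed match in its 3′ UTR, to miR-27a-3p.

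**Figure D1:**
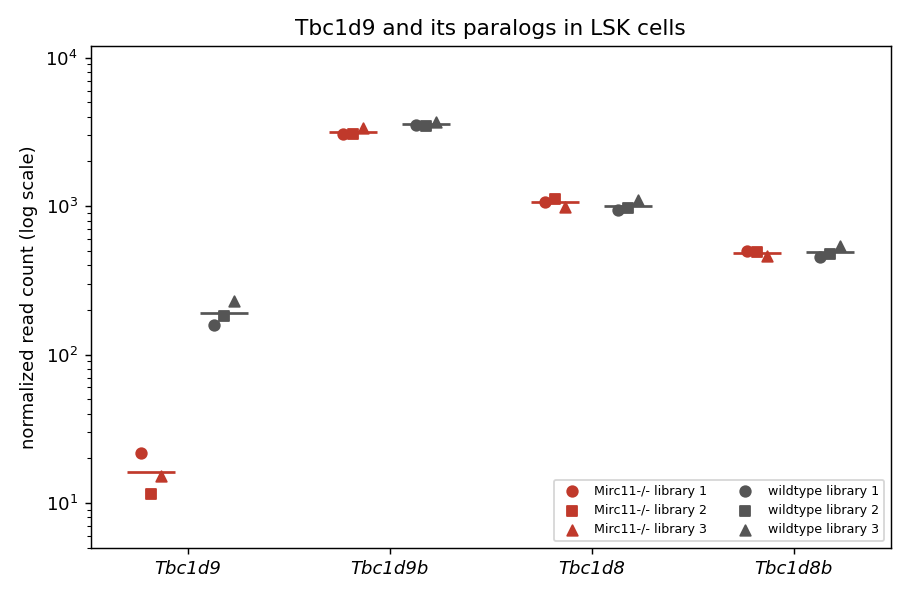
Normalized read counts of Tbc1d9 and its 3 paralogs on a log axis, with 1 point per library, Mirc11-/- libraries in red on the left and wildtype libraries in grey on the right of each gene, and lines at the means. Tbc1d9 sits at 11.4 to 21.8 in Mirc11-/- libraries and 158 to 231 in wildtype libraries, while the values of each paralog lie close together.

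The difference between Tbc1d9 and each paralog was compared as a log2 ratio within each library. Against Tbc1d9b the log2 ratio averaged -7.57 ± 0.45 in Mirc11-/- libraries and -4.23 ± 0.25 in wildtype libraries (SD, n = 3 each). The ratio differed by -3.34 log2 units against Tbc1d9b, -3.59 against Tbc1d8 and -3.50 against Tbc1d8b. Every ratio was lower in all 3 Mirc11-/- libraries than in any wildtype library. The two-sided exact permutation test over 6 libraries gave p = 0.1 for each of the 3 ratios, adjusted p = 0.1, which is the smallest p that 3 against 3 libraries allow, so this test could not pass 0.05.

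Expressed per length, as normalized count per kb of the longest transcript, Tbc1d9 was the least abundant of the 4 genes in both genotypes. It had 3.02 per kb in Mirc11-/- cells and 35.7 in wildtype cells. Over all 6 libraries, Tbc1d9b had 642 per kb, Tbc1d8 232 and Tbc1d8b 95.5. Tbc1d9 thus made up 0.440, 0.229 and 0.295% of the summed level per length of the 4 genes in the Mirc11-/- libraries, against 2.93, 3.40 and 3.95% in the wildtype libraries. The normalized counts of the other 3 genes together, not divided by length, were 4692 ± 104 in Mirc11-/- cells and 5040 ± 222 in wildtype cells (SD, n = 3 each), with no overlap between the libraries. Tbc1d9b held most of that sum, at a mean of 3151 in Mirc11-/- and 3548 in wildtype cells. The means of Tbc1d8 (1058 against 1003) and Tbc1d8b (484 against 489) did not share that fall, and both genes overlapped between genotypes.

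Among the 97 members tested, 1 passed the adjusted threshold, which was Tbc1d9, and 0 were higher. Over all 15662 genes tested, 5 passed, or 0.0319%, with 0.0255% lower and 0.00638% higher. By edgeR and by DESeq2 on the read counts recovered from the table, Tbc1d9 also passed, with adjusted p = 0.00387 by edgeR, which called 0.0255% of all genes, and 1.57e-24 by DESeq2, which called 0.798%. At an unadjusted p under 0.05 there were 10 members, 5 higher and 5 lower in Mirc11-/- cells, or 10.3% of those tested, against 8.24% of all genes (4.15% higher and 4.09% lower). The share of members was close to that background. Without Mirc11-/- library 3 the count was 20 members, while 20.1% of all genes passed in the same fit.

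The 3 Mirc11-/- values lay wholly above or wholly below the 3 wildtype values in 19 members (19.6%), against 12.9% of all genes tested. Of these, 12 members were higher in Mirc11-/- cells, against 6.42% of all genes, and 7 were lower, against 6.53%. Among members with a mean of at least 100 the share was 18 of 76 (23.7%), against 13% of all genes at that level. Without Mirc11-/- library 3, 36 members (37.1%) were free of overlap, against 38.3% of all genes, so that no excess of members was seen in that comparison of 2 against 3 libraries. The members' share was higher than that of all genes without Mirc11-/- library 1 (33% against 22.5%) and without library 2 (22.7% against 16.9%). It was also higher without wildtype libraries 1, 2 and 3, at 33% against 22.2%, 22.7% against 18.1% and 28.9% against 26%. Most of the 19 separations were small. A log2 fold change of 1 or more in either direction was found in 3 of the 97 members, against 4.64% of all genes. These were Tbc1d9, Rab42 and Rab33a. Rab33a overlapped between the genotypes, with 0, 3.12 and 16.1 normalized counts in Mirc11-/- libraries and 10.8, 7.94 and 5.07 in wildtype libraries. A log2 fold change of 0.5 or more was found in 7 members, against 15.5% of all genes. The median log2 fold change of the 97 members was -0.015, beside 0.0025 over all genes tested.

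**Figure D2:**
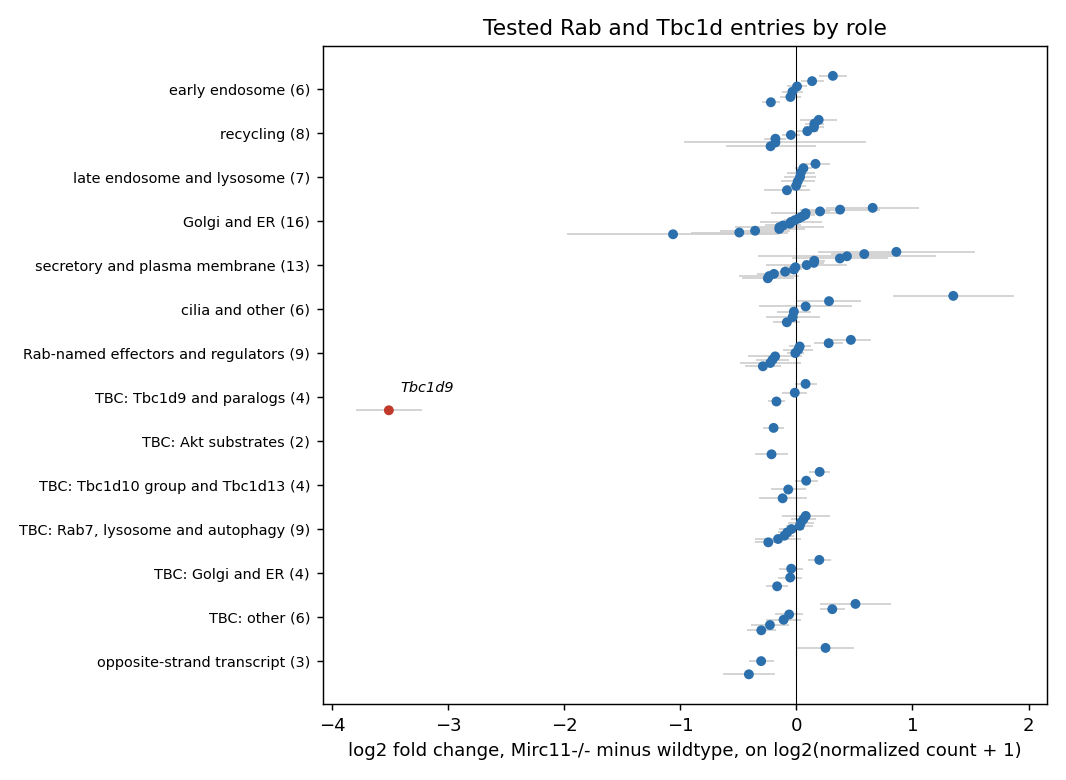
Log2 fold change (Mirc11-/- minus wildtype, on log2(normalized count + 1)) of the 97 tested members by role, with the number of genes in brackets and bars of 1 SE. Tbc1d9, in red, stands alone at -3.51. Most of the other members, in blue, lie near 0, and the farthest from it are Rab42 at 1.35 and Rab33a at -1.06, both at low counts.

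The Rab GTPase genes and the Tbc1d genes were spread around 0 as well. Of the 56 Rab GTPase genes, 29 lay above 0 and 27 below 0 in log2 fold change (median 0.0081). Of the 29 Tbc1d genes, 10 lay above 0 and 19 below 0 (median -0.063). No Rab GTPase gene passed the adjusted test. At an unadjusted p under 0.05 there were 3 Rab GTPase genes with a higher level (Rab22a, Rab42 and Rab43) and 1 with a lower level (Rab31), and 1 Tbc1d gene with a higher (Tbc1d24) and 3 with a lower level (Tbc1d9, Tbc1d9b and Tbc1d19). Rab3il1, a Rab-named regulator, was higher and the transcript Rab10os lower at the same limit.

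Early endosomal Rabs drive the fusion and sorting of freshly endocytosed cargo, and of these 6 genes 3 had positive and 3 negative log2 fold changes (median -0.015). Rab31, which acts between the trans-Golgi network and endosomes, had 1777, 1640 and 1732 normalized counts in Mirc11-/- libraries and 1928, 2121 and 1953 in wildtype libraries. All 3 Mirc11-/- values lay below the wildtype values, with a log2 fold change of -0.22 (SE 0.08, limma adjusted p = 0.519). Rab22a, a close relative of Rab31 that serves recycling from early endosomes, lay on the other side of 0. It had 514, 432 and 444 normalized counts in Mirc11-/- libraries, against 357, 355 and 404 in wildtype libraries. Its log2 fold change was 0.31 (SE 0.12), without overlap of the genotypes, and it also missed the adjusted threshold. Rab5c, which promotes homotypic fusion of early endosomes, was the second of all members in level per length, at 1484 per kb, with a log2 fold change of -0.05 (SE 0.09).

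Recycling Rabs return receptors to the cell surface. Of 8 tested, 4 had positive and 4 negative log2 fold changes (median 0.023). Rab14, which works between the trans-Golgi network and endosomes, had 2798, 2719 and 2590 normalized counts in Mirc11-/- libraries, against 2246, 2489 and 2553 in wildtype libraries, a log2 fold change of 0.15 (SE 0.08). Rab35, a Rab of fast recycling, was likewise free of overlap, at a log2 fold change of 0.15. Rab4a, also of fast recycling, lies on chromosome 8. Its libraries overlapped, at a log2 fold change of 0.19 (SE 0.16).

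Late endosomal and lysosomal Rabs lay close to 0, with 5 of 7 positive and a median log2 fold change of 0.031. Rab7, which directs late endosomes to lysosomes, was among the most abundant members at 1289 per kb. Its normalized counts were 3025, 2736 and 2587 in Mirc11-/- libraries, against 2894, 2780 and 2679 in wildtype libraries. The libraries of the 2 genotypes interleaved. Rab9, which returns receptors of the lysosomal pathway to the Golgi, had the smallest p of this group and a log2 fold change of 0.16 (SE 0.12), or 0.26 without Mirc11-/- library 3. None of the 7 genes was free of overlap.

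Rabs of the Golgi and endoplasmic reticulum formed the biggest group, with 7 positive and 9 negative log2 fold changes among 16 genes (median -0.031). Rab43, a Rab of the Golgi, had 1595, 1562 and 1549 normalized counts in Mirc11-/- libraries and 1349, 1256 and 1491 in wildtype libraries. Every Mirc11-/- library was above every wildtype library, at a log2 fold change of 0.20 (SE 0.09, limma adjusted p = 0.592). Rab1 and Rab1b, which carry traffic out of the endoplasmic reticulum, were abundant at 899 and 1184 per kb. Their log2 fold changes were -0.02 (SE 0.09) and -0.06 (SE 0.08), with overlap of the genotypes. Rab18, of the endoplasmic reticulum and lipid droplets, did not overlap, yet its log2 fold change was 0.05 (SE 0.07).

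Secretory and plasma membrane Rabs had 7 positive and 6 negative log2 fold changes (median 0.088). Rab44, a large Rab with a calcium-binding domain, had the highest level per length of all members, at 1770 per kb. It had 8025, 6627 and 5708 normalized counts in Mirc11-/- libraries, against 7620.0, 9007 and 6620 in wildtype libraries. Its log2 fold change was -0.19 (SE 0.15), within the spread of the libraries, and -0.076 without Mirc11-/- library 3. Rab8a, which serves exocytosis and ciliary transport, had 2128, 1885 and 1887 normalized counts in Mirc11-/- libraries and 1875, 1716 and 1722 in wildtype libraries. Its values did not overlap, with a log2 fold change of 0.15 (SE 0.08). Rab27b, of secretory granules, had 113, 194 and 213 normalized counts in Mirc11-/- libraries, against 90.7, 100 and 152 in wildtype libraries. Its log2 fold change of 0.58 (SE 0.28) came with overlap of the genotypes.

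In the last group of Rabs, of cilia and other roles, 3 of 6 genes were positive (median 0.029). Rab42 had 4.73, 9.35 and 4.02 normalized counts in Mirc11-/- libraries and 1.97, 0.992 and 2.03 in wildtype libraries. Its log2 fold change of 1.35 (SE 0.52) rested on 18 reads in Mirc11-/- libraries and 5 in wildtype libraries.

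**Figure D3:**
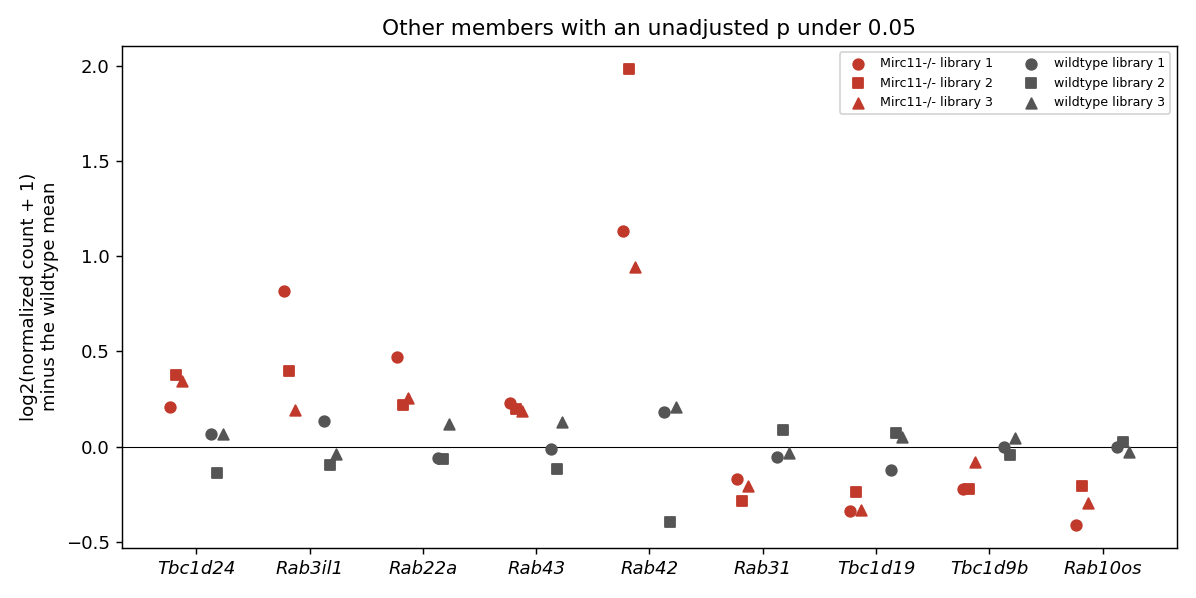
Log2(normalized count + 1) minus the wildtype mean for the 9 members other than Tbc1d9 with an unadjusted p under 0.05, 1 point per library, Mirc11-/- in red on the left and wildtype in grey on the right of each gene. The red points of Rab42 lie near 1 to 2, those of the other genes with a higher level mostly between 0.2 and 0.8, and none of the 9 passed the adjusted threshold.

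Of the 9 Rab-named effectors and regulators, 4 had positive and 5 negative log2 fold changes. Rab3il1, a GEF known for Rab8 and for binding Rab3a, had 433, 323 and 281 normalized counts in Mirc11-/- libraries, against 269, 229 and 239 in wildtype libraries. No wildtype library reached a Mirc11-/- library, and the log2 fold change was 0.47 (SE 0.17, limma adjusted p = 0.534). Mirc11-/- library 3 was the lowest of the 3 and the closest to wildtype, as it was for the erythroid markers, and their part in the result was not tested. The log2 fold change of Rab3il1 was 0.61 without Mirc11-/- library 3 and 0.29 without library 1. Rab11fip1, an effector of Rab11, did not overlap either, at a log2 fold change of 0.28 (SE 0.13). The GAP subunits Rab3gap1 and Rab3gap2 had log2 fold changes of 0.03 and -0.01.

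The Tbc1d genes were ordered by the step they are known to act on. Those of Rab7, the lysosome and autophagy numbered 9, with 4 positive and 5 negative log2 fold changes (median -0.044) and 0 free of overlap. Among these Tbc1d5, which acts on Rab7 beside retromer, had the smallest p, with a log2 fold change of -0.24 (SE 0.12), or -0.36 without Mirc11-/- library 3. Tbc1d15, also a GAP for Rab7, had 490 per kb and a log2 fold change of -0.10 (SE 0.08). The 2 substrates of the kinase Akt, Tbc1d1 and Tbc1d4, control glucose transporter traffic in muscle and fat. Tbc1d1 had 1003, 896 and 961 normalized counts in Mirc11-/- libraries, against 1109, 1147 and 1022 in wildtype libraries. Those values did not overlap, at a log2 fold change of -0.20 (SE 0.09), whereas Tbc1d4, at -0.21 (SE 0.14), did overlap.

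Tbc1d10c, which encodes the calcineurin inhibitor carabin of lymphocytes, had the highest level per length of the Tbc1d genes at 646 per kb, close to Tbc1d9b. It had 1268, 1513 and 2289 normalized counts in Mirc11-/- libraries and 1657, 1580 and 2150 in wildtype libraries. The libraries of both genotypes spread widely and overlapped, with a log2 fold change of -0.12 (SE 0.21). Tbc1d13, a GAP for Rab35, had 556 per kb and a log2 fold change of 0.08 (SE 0.10). Tbc1d10b, whose targets include Rab27a and Rab35, had 454 per kb, did not overlap and had a log2 fold change of 0.20 (SE 0.09). Tbc1d20, the GAP for Rab1, was likewise higher without overlap at 0.20 (SE 0.10), and Tbc1d22a, of the Golgi, lower without overlap at -0.17 (SE 0.09).

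Of the remaining Tbc1d genes, Tbc1d24, whose human counterpart is mutated in inherited epilepsy and deafness, had 567, 639 and 624 normalized counts in Mirc11-/- libraries, against 515, 448 and 516 in wildtype libraries. The Mirc11-/- libraries were all higher, with a log2 fold change of 0.31 (SE 0.11, limma adjusted p = 0.502). Its annotation shares 1732 bases with Ntn3, and whether the counting used strand is not given in the sources used here. Tbc1d19 had 228, 244 and 228 normalized counts in Mirc11-/- libraries and 264, 303 and 299 in wildtype libraries. All 3 values were lower in Mirc11-/- cells, at a log2 fold change of -0.30 (SE 0.12). The opposite-strand transcript Rab10os had 332, 382 and 359 normalized counts in Mirc11-/- libraries, against 441, 450 and 434 in wildtype libraries, a log2 fold change of -0.30 (SE 0.11). It shares 2947 bases with Rab10, whose log2 fold change was -0.02 (SE 0.07), and reads of the 2 cannot be told apart without strand.

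In the order of level per length, the 5 highest Rab GTPase genes were Rab44, Rab5c, Rab7, Rab1b and Rab1, and the 5 highest Tbc1d genes were Tbc1d10c, Tbc1d9b, Tbc1d13, Tbc1d15 and Tbc1d10b. Neighbours among the first 4 Rabs overlapped in the range of their 6 libraries, and so did Rab1 and the gene after it. Rab1b, at 1085 per kb in its lowest library, did not overlap Rab1, at 1001 in its highest. The highest Tbc1d gene came after 10 Rab GTPase genes, and among the 97 members Tbc1d9 stood at place 92 in Mirc11-/- cells and 77 in wildtype cells.

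Genes around the Rab cycle outside the symbol rule were read from 4 lists, and 0 of the 85 tested of 88 listed passed the adjusted test. At an unadjusted p under 0.05 there were 6 (7.06%), against 8.24% of all genes, so the share was no higher than the background. The other 10 TBC domain genes had a median log2 fold change of 0.17, beside 0.0025 over all genes tested, with 1 higher at an unadjusted p under 0.05, Usp6nl (0.22), a GAP for Rab5. The 32 Rab GEFs had a median near 0 (16 positive and 16 negative), with Dennd4a, a GEF for Rab10, higher (0.38) at that limit. Hps1, part of the GEF for Rab32 and Rab38, was lower (-0.23), as was Rin3, a GEF for the Rab5 group (-0.22). The 8 GDI, escort and prenylation genes had 3 positive and 5 negative log2 fold changes and none at that limit. Of 35 effectors tested, 14 were positive and 21 negative, with Rilpl2 lower and Mical1, an actin-oxidizing enzyme, lower at -0.21. Rilpl2, a ligand of phosphorylated Rab8 and Rab10, had 745, 770 and 757 normalized counts in Mirc11-/- libraries, against 919, 966 and 1002 in wildtype libraries. The genotypes were well apart, and the log2 fold change was -0.34 (SE 0.08, limma adjusted p = 0.419).

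Chromosome 8, which carries Mirc11, holds 6 of the 100 members. The other 5 lie much farther from the cluster than Tbc1d9, with Rab8a at 12 Mb, Rab3a at 13.5 Mb, Rab4a at 39.6 Mb, Rab11fip1 at 57.0 Mb and Rab20 at 72.7 Mb. Both Rab3a, of synaptic and secretory vesicles, at a log2 fold change of -0.25 (SE 0.23), and Rab20, which takes part in phagosome maturation, at 0.28 (SE 0.28), overlapped between genotypes. Without Mirc11-/- library 3, Rab20 was at 0.13. None of these 5 passed the adjusted test.

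The genes most like Tbc1d9 over the 6 libraries were Dazap2 (Pearson r = 0.997), Bckdha (0.994), Mir23a (0.989), Cd53 (0.985) and 2810459M11Rik (0.984). These correlations describe 6 libraries of 2 genotypes, so any gene that separates the genotypes scores high, and they carry no test. Mir23a is itself in the deletion. The closest members were Rab31 (0.920), Tbc1d19 (0.896) and Rab10os (0.861). The log2 fold changes behind the first 2 of these were small, -0.22 and -0.30, compared with -3.51 for Tbc1d9.

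Some members differed as much among the Mirc11-/- libraries as between genotypes. Of the 80 tested members with a mean of at least 50, 14 (17.5%) had a highest Mirc11-/- library at least 1.5 times the lowest, against 18.9% of all such genes, so the share was near the background. In wildtype libraries it was 5 members (6.25%), against 8.37% of all such genes. These limits were chosen after the values were seen. In 10 of the 14 members (71.4%), Mirc11-/- library 1 was the lowest and library 3 the highest, an order also found in 47.8% of all genes with such a spread.

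Rab37, a Rab of mast cell granules, had 621, 1016 and 1435 normalized counts in Mirc11-/- libraries and 1106, 1007 and 1328 in wildtype libraries. Mirc11-/- library 3 lay above the wildtype range and library 1 below it. The annotation of Rab37 shares 19159 bases with Cd300lf, and the strand used in counting is not given in the sources used here. Rab38, of lysosome-related organelles, had 793, 1143 and 1405 normalized counts in Mirc11-/- libraries, against 1207, 954 and 1311 in wildtype libraries. Tbc1d16, a GAP for Rab4, had 386, 530 and 627 normalized counts in Mirc11-/- libraries, against 604, 570 and 600 in wildtype libraries. In both genes too, Mirc11-/- library 3 was above the wildtype range and library 1 below it. The median of the erythroid markers, relative to wildtype on the log2 scale, was 1.35, 1.25 and -0.11 in Mirc11-/- libraries 1, 2 and 3, against 0.46, -0.11 and -0.33 in the wildtype libraries. Their part in the spread of these members was not tested. With the markers as a covariate in the fit, the log2 fold change of Tbc1d10c was 0.30 in place of -0.12, and that of Tbc1d9 was -3.53.

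**Figure D4:**
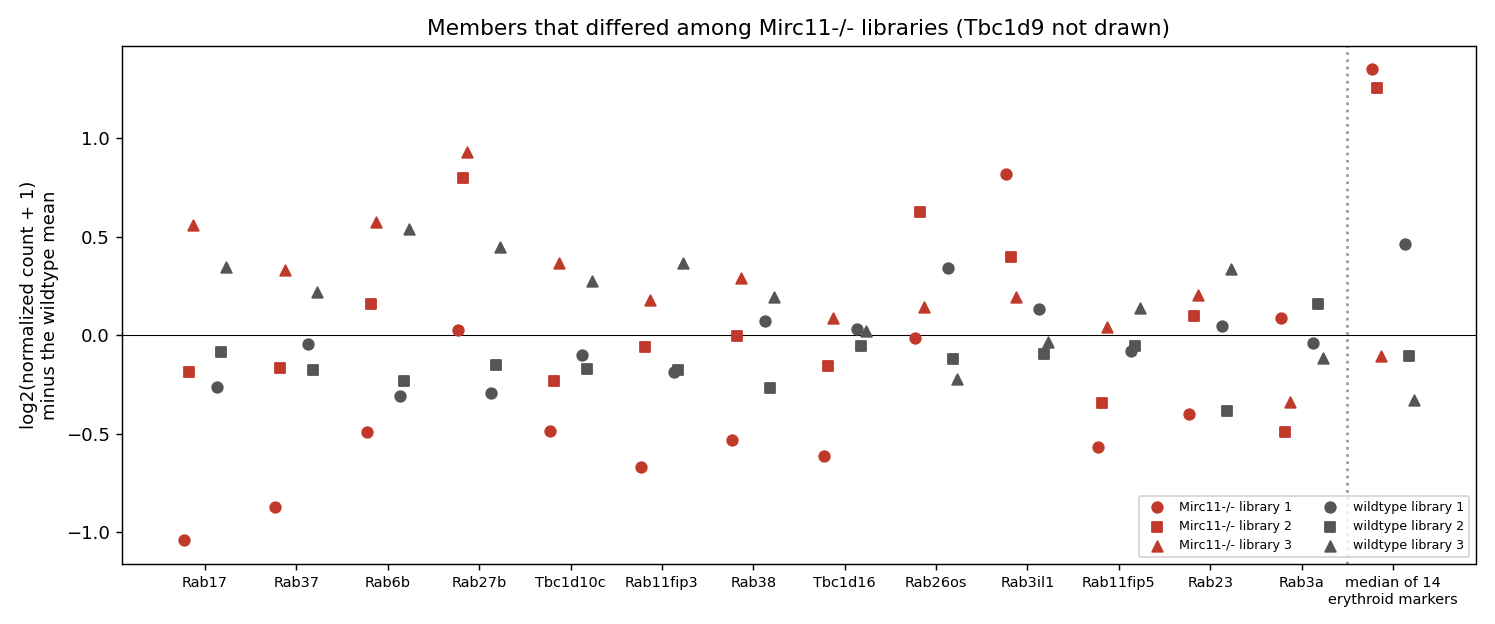
Log2(normalized count + 1) minus the wildtype mean for 13 members whose highest Mirc11-/- library was at least 1.5 times the lowest (Tbc1d9, the fourteenth, is not drawn), and right of the dotted line the median of 14 erythroid markers, with Mirc11-/- libraries in red on the left and wildtype libraries in grey on the right. Mirc11-/- library 1, a circle, is lowest in most of the genes and highest in the markers.

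For each gene the longest 3′ UTR of the GENCODE vM21 annotation was searched for seed matches, as the letters AATGTGA for miR-23a-3p, ACTGTGA for miR-27a-3p and CTGAGCC for miR-24-3p on the transcript strand. A match is a description of the letters, not a site in use. Of the 94 tested members with a 3′ UTR, 43 (45.7%) held a match to at least 1 of the 3 seeds, against 39.7% of all such genes, and the median 3′ UTR of the members was longer, at 1708 bases against 1112. The shares by miRNA were 16% against 16% for miR-23a, 14.9% against 16.8% for miR-27a and 25.5% against 18.7% for miR-24. A match to any of the 3 was held by 17 of 29 Tbc1d genes (58.6%) and 20 of 56 Rab GTPase genes (35.7%). For miR-23a the shares of Tbc1d and Rab GTPase genes were 27.6% and 7.14%. Members with and without a match had similar medians, a log2 fold change of -0.015 with any match and -0.0099 without. Over all such genes these medians were 0.021 and -0.0063. By miRNA, the members' medians with and without a match were -0.10 and -0.0099 for miR-23a, with 15 members holding a match. They were 0.022 and -0.022 for miR-27a, and -0.019 and -0.015 for miR-24. Over all such genes the miR-23a medians were 0.037 and -0.0018.

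Matches to miR-24-3p were densest in Rab43 and Tbc1d24, with 5 each in 3′ UTRs of 3737 and 5810 bases. Only 11 genes of all those with a 3′ UTR (0.0781%) held 5 or more, Rab43 and Tbc1d24 included. The median log2 fold change of the 11 was 0.05, with 6 of 11 positive. Both members had higher levels in Mirc11-/- cells without overlap, at 0.20 for Rab43 and 0.31 for Tbc1d24, and neither passed the adjusted test. Rab3il1 held 2 such matches and Rab22a 1 match to miR-27a-3p. Tbc1d30, Tbc1d17 and Tbc1d22a also held 2 matches to miR-24-3p each, at log2 fold changes of 0.51, -0.04 and -0.17. Of these, Tbc1d22a was lower without overlap, while Tbc1d30 and Tbc1d17 overlapped between genotypes. Tbc1d24 also held a match to miR-23a-3p, at position 2382, which is not shown. Of the members lower at an unadjusted p under 0.05, Tbc1d9 held 2 matches to miR-23a-3p and Tbc1d9b 1 to miR-27a-3p. The miR-24-3p and miR-27a-3p sites are shown for the 4 members with a match and a higher level at that limit. The match is in capitals, with the position of its first base in the 3′ UTR.
Rab43 site at 230: ccaggactagcCTGAGCCtccagcataga
Rab43 site at 466: cccggggaggcCTGAGCCcatcaggtggg
Rab43 site at 1346: ctgtgtactagCTGAGCCtggctctgatg
Rab43 site at 1696: actacccaactCTGAGCCtgccctttgta
Rab43 site at 1971: cgataccagtgCTGAGCCcagcaggacgt
Tbc1d24 site at 182: ggttaggattcCTGAGCCctcctgcttct
Tbc1d24 site at 322: tttccatgcccCTGAGCCtcagcccctta
Tbc1d24 site at 986: gtctgtgcttcCTGAGCCctgtgccagcc
Tbc1d24 site at 1671: gcccacttcccCTGAGCCcactgccgagg
Tbc1d24 site at 3286: gttctctaccaCTGAGCCatgccctcagc
Rab3il1 site at 86: tggagccagctCTGAGCCagaagctgaaa
Rab3il1 site at 137: tagagacagttCTGAGCCcgtaccaccca
Rab22a site at 770: tgggaaaaacaACTGTGAgctgcctagca

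**Figure D5:**
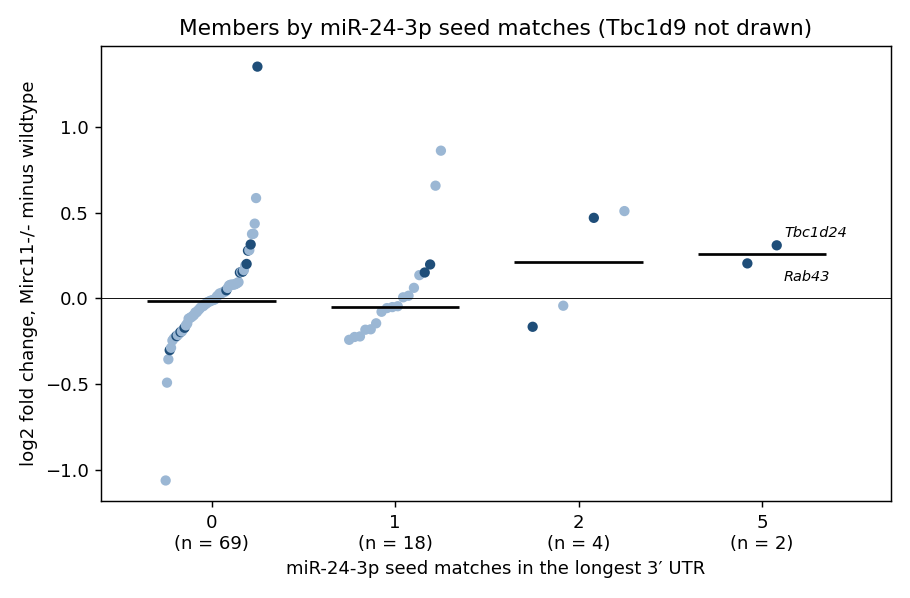
Log2 fold change (Mirc11-/- minus wildtype) of 93 members by the number of miR-24-3p seed matches in the longest 3′ UTR, with lines at the medians and dark points for members whose genotypes did not overlap (Tbc1d9, with 0 matches, is not drawn). The medians are -0.01 for 0 matches, -0.05 for 1, 0.21 for 2 and 0.26 for 5, and the last 2 rest on 4 and 2 genes.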

How the data were processed

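RNA-seq libraries of LSK cells (poly(A) selected) were compared between 3 Mirc11-/- and 3 wildtype libraries, grouped by the submitters' labels. STAR, Cufflinks and mm10 are named in the submitters' processing notes, and DE-seq and hg19 in the paper's methods. The table carries mouse symbols. Neither versions, nor the annotation, nor the strand used in counting is given in the sources used here. By its name the deposited table holds FPKM, but the authors' values are a signal, equal to read counts scaled by 1 factor per library, and 100% of the values above 0 were whole multiples of the worth of 1 read within 0.001.

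Two-sided limma 3.58.1 (R 4.3.3) with a mean-variance trend and moderated variances was run on log2(value + 1) for the 15662 of 23997 symbols with a mean of at least 1, adjusted by Benjamini-Hochberg and called at 0.05. Entries of 2 symbols listed on 2 entries each were summed. Read counts recovered from the deposited values were tested with edgeR 4.0.16 and DESeq2 1.42.0 as alternatives, beside other pseudocounts, filters, scalings, a model without trend, a replicate block, an erythroid marker covariate and fits without each library. The fits were tested on simulated data. Transcript lengths and 3′ UTRs came from GENCODE vM21, and coordinates and miRNAs from RefSeq GRCm38.p6, both matched by symbol for all 100 members in position and length and for 94 tested members in 3′ UTR.

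Named genes were Tbc1d9 and its paralogs, members with an unadjusted p under 0.05, the 5 most abundant per length of the Rab GTPase and of the Tbc1d genes, members on chromosome 8, the member of each role group with the smallest p, and the 5 genes most like Tbc1d9. Members without overlap, Rab37, Rab38, Tbc1d16, Rilpl2 and the genes listed with it were named after their values were seen. Tbc1d9 as the gene to compare, the members, role groups and lists were chosen with earlier results of these data known.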

Additional observations from a re-analysis of the deposited data

How the results depend on the processing

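Tbc1d9 kept its direction in every alternative run, with a log2 fold change of -3.51 and an adjusted p of 0.0653 without a mean-variance trend, where 0 members were called. Leaving out each library gave -3.74 to -3.31 for Tbc1d9, 0 to 1 members called, 1 to 20 members at an unadjusted p under 0.05 (main 10), 22 to 36 members without overlap (main 19, with 16.9 to 38.3% of all genes in the same comparisons), and 1 to 531 genes called over the whole table (main 5). The 20, 36 and 531 came without Mirc11-/- library 3, and the single member without wildtype library 2. DESeq2 called 125 genes. Same-numbered libraries did not deviate together (correlations 0.0664, -0.0632 and 0.0969). With the replicate block 30 genes passed the adjusted threshold, and 14 members had an unadjusted p under 0.05, against 12.2% of all genes. The adjusted p of Tbc1d9 was 0.0079, and its paired ratios to the 3 paralogs had exact p = 0.25, the smallest that 3 pairs allow.

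The median of the Rab GTPase genes was 0.046 with the erythroid covariate and -0.0032 to 0.040 without single libraries. Small log2 fold changes turned sign: Rab7 was 0.014 after quantile normalization, and with the covariate Tbc1d10c was 0.30 and Tbc1d13 -0.015. Without single libraries the ranges crossed 0 for Tbc1d8b (-0.066 to 0.053), Rab7 (-0.065 to 0.048), Rab1 (-0.098 to 0.039), Tbc1d10c (-0.36 to 0.065) and Tbc1d13 (-0.019 to 0.14). In the other alternatives, 455 of 463 values of named genes other than Tbc1d9 kept direction and side of the threshold. Causes were not tested. Depth limits members of a few reads, such as Rab42.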
